A study of Mus musculus with 25 samples.

Results

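The genes described here build the MHC class I system of the mouse, through which nucleated cells show peptides from inside the cell to CD8+ T cells and natural killer cells. They are the 10 rows of the deposited expression table that carry the symbols H2-K1, H2-D1, H2-T23, H2-M3, H2-Q4, B2m, Tap1, Tap2, Tapbp and Erap1, out of 25006 rows, and all 10 passed the filter on low values that left 12262 genes for testing. RNA came from preparations labelled as enriched CD8+ T cells, taken from E0771 mammary tumours in C57BL/6 mice. The 3 anti-CD73 libraries came from mice given an antibody against CD73 every 3 days, and the 3 control libraries carry the label con with no further agent named. The mice of both groups bore the same tumour line. CD73, encoded by Nt5e, forms adenosine from AMP outside cells. Nothing in the labels says that replicates are different mice, so p-values measure only the spread between these samples, which may be technical.

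A class I molecule pairs a heavy chain with beta-2 microglobulin and holds a short peptide in its groove. Peptides cut by the proteasome are carried into the endoplasmic reticulum by the TAP transporter, trimmed there by an aminopeptidase and loaded with the help of tapasin. The classical heavy chains are on nearly all nucleated cells and face the T cell receptor of CD8+ T cells. The nonclassical ones present restricted sets of peptides to T cells and natural killer cells. Interferons raise most genes of this system, and NLRC5 is a transcription activator devoted to it. E0771 derives from the C57BL/6 strain, so tumour and host transcripts of these genes cannot be told apart here.

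Facts of the libraries bear on all values below. The libraries held between 11618374 and 13172235 recovered reads after anti-CD73 and between 10180624 and 17161679 in controls. Against the label, T cell transcripts were scarce: Cd8a, a chain of the CD8 co-receptor, lay between 34.96 and 90.2 normalized counts after anti-CD73 and between 7.60 and 122 in controls. The 9 measured of 12 T cell markers summed to between 282 and 537 after anti-CD73 and between 138 and 593 in controls, with none at 0 in any library. The 14 macrophage markers summed to between 19001 and 31400 after anti-CD73 and between 12194 and 20451 in controls, again with none at 0. The 4 general leukocyte markers summed to between 7907 and 12971 after anti-CD73 and between 4988 and 10033 in controls. Of the marker sums, those of 9 neutrophil genes (8298 to 14630 after anti-CD73, 5773 to 7539 in controls) and of 10 fibroblast genes (5426 to 6346 after anti-CD73, 4231 to 5259 in controls) did not overlap between the groups. Among these genes, only Camp of the neutrophil list was at 0 in any library. S100a8 and S100a9 made most of the neutrophil sum, and Col3a1 and Pdgfra most of the fibroblast sum. The genes did not all move alike. Of those tested, 6 of 8 neutrophil and 6 of 9 fibroblast genes had a log2 fold change above 0. Those below it were Ly6g (-0.03), Ngp (-0.002), Postn (-0.66), Fap (-0.02) and Dcn (-0.01). In such mixed material, fewer cells of a type and less RNA per cell cannot be told apart. Control replicate 1 stood apart from the other controls, with the highest T cell, macrophage and leukocyte sums of the 3 and with erythroid markers at 7845 against 55529 and 58716. Results that rest on it are given with and without it.

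The promoters of H2-K1, H2-Q4 and H2-T23, which lay higher after anti-CD73, and of H2-D1, which did not, are shown. H2-K1, H2-D1 and H2-Q4 have much the same promoter letters but differed in their values, while H2-T23 has other letters. H2-M3 also lay higher, and its window is not shown. The 300-base windows are from RefSeq on build GRCm38.p6, from 250 bases before to 50 after an annotated start, each read 5′ to 3′ on the strand of its gene. These starts do not line up between genes. The enhancer A letters begin at -110 from the start in H2-K1 and at -170 in H2-D1. Capitals mark the letters of 4 short motifs found on either strand: GGGATTCCC from enhancer A, TTTCACTT from the interferon response element, TGACG from the X2 box and CCAAT from the Y box. H2-K1 lies at chr17:34000298-34000597 on the minus strand, H2-D1 at chr17:35262844-35263143 on the plus strand, H2-Q4 at chr17:35379367-35379666 on the plus strand and H2-T23 at chr17:36032652-36032951 on the minus strand.
H2-K1: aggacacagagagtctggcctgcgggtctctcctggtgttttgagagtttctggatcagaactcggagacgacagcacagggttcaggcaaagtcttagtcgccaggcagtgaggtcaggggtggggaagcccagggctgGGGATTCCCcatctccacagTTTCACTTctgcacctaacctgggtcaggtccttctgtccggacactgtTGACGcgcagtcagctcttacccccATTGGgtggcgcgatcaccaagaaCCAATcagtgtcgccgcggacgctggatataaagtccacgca
H2-D1: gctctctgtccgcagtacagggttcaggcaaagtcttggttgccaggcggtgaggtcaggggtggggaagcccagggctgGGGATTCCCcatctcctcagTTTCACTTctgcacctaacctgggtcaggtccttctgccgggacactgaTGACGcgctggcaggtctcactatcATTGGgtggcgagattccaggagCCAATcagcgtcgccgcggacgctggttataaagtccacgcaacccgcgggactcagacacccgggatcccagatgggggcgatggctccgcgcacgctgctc
H2-Q4: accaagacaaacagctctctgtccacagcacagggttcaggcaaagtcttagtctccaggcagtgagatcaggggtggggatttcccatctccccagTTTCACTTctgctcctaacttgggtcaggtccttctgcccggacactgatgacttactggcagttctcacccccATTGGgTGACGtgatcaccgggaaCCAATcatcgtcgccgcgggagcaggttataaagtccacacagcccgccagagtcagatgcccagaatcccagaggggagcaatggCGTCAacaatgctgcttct
H2-T23: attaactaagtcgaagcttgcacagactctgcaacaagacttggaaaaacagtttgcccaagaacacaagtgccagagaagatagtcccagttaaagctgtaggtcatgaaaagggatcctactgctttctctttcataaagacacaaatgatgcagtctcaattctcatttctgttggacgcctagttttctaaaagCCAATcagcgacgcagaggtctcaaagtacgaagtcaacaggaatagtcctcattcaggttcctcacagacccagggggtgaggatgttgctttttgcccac

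H2-K1 and H2-D1 held all 4 motifs, at 88.3% identity over the aligned bases of their windows. H2-Q4 held 3 of them and was 83.5% identical to H2-K1 and 83.1% identical to H2-D1. Its X2 letters lie after the Y box letters ATTGG, whereas those of H2-K1 and H2-D1 lie before ATTGG. The X2 match is thus not at the same place in H2-Q4. H2-T23 held only the Y box letters, and its identity of 57.2% to H2-K1 was no higher than the 59.8% between H2-K1 and B2m. Of all 32851 promoter windows of this length, 0.353% held the enhancer A letters, 1.601% the interferon response letters, 20.8% the X2 letters and 37.4% the Y box letters, and 4 windows held all 4. Among the other members, H2-M3 held 3 motifs, B2m and Tap1 held 2 each (X2 and Y box), Tapbp only the Y box and Erap1 only the interferon response letters, 9 of the 10 members having a window in the table. A match is a description of letters, and its absence says only that these letters are not in this window. The strong likeness of H2-K1, H2-D1 and H2-Q4 also extends to transcripts of this family, and the treatment of reads with several matches is not given, so the division of reads among the heavy-chain genes is uncertain.

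Of the classical pair, H2-K1 encodes the heavy chain of the K molecule (ENSMUSG00000061232; chromosome 17, 33996012 to 34000619). It stood at 14548, 14621 and 12094 normalized counts in anti-CD73 replicates 1, 2 and 3, and at 10739, 9874 and 10244 in control replicates 1, 2 and 3. The groups did not overlap, with the lowest anti-CD73 library above the highest control. The log2 fold change, on log2(normalized count + 1), was 0.41 (SE 0.12, limma adjusted p = 0.193), so H2-K1 did not pass the threshold of 0.05 over all genes tested. H2-D1 encodes the heavy chain of the D molecule (ENSMUSG00000073411; chromosome 17, 35263094 to 35267497). It stood at 36948, 36984 and 37465 in the anti-CD73 libraries and at 28235, 39889 and 43054 in the controls. The anti-CD73 libraries lay close together (SD 289, n = 3) and inside the range of the controls, whose lowest library was control replicate 1. Its log2 fold change was 0.03 (SE 0.18, 95% interval -0.39 to 0.44, limma adjusted p = 0.96), and -0.16 (adjusted p = 0.201) without control replicate 1. Within a library, where scaling cancels, H2-K1 over H2-D1 was 0.394, 0.395 and 0.323 after anti-CD73 and 0.380, 0.248 and 0.238 in controls. Control replicate 1 thus lay among the anti-CD73 libraries in this ratio, which was chosen after the values were seen and was not tested.

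**Figure D1:**
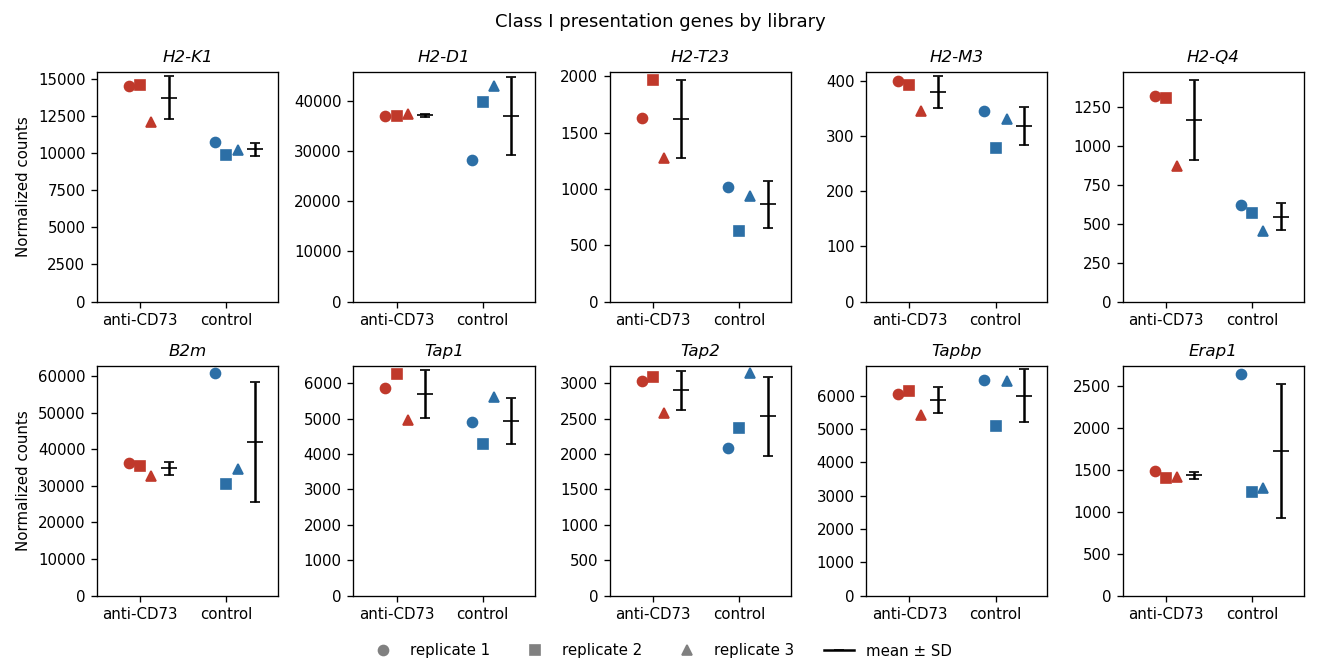
Normalized counts (y axis, from 0) of the 10 class I genes in each anti-CD73 and control library, with a symbol for each replicate and the mean ± SD beside each group (n = 3 each). H2-K1, H2-T23, H2-M3 and H2-Q4 had every anti-CD73 library above every control, and B2m and Erap1 had control replicate 1 far above the other 5 libraries.

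The nonclassical H2-Q4 and H2-T23 held the largest differences of the set, while the nonclassical H2-M3 differed less than the classical H2-K1. H2-Q4, a heavy chain of the Qa region (ENSMUSG00000035929; chromosome 17, 35379617 to 35384674), stood at 1323, 1314 and 873 normalized counts after anti-CD73 and at 619, 569 and 453 in controls. The groups did not overlap, and anti-CD73 replicate 3 was the lowest of its group. The mean was 1170 ± 257 after anti-CD73 and 547 ± 85.4 in controls (SD, n = 3 each), a log2 fold change of 1.08 (SE 0.20, limma adjusted p = 0.141), a fold of 2.12. H2-T23 encodes the heavy chain of Qa-1, which shows leader peptides of other class I chains to the CD94 and NKG2A receptor of natural killer cells (ENSMUSG00000067212; chromosome 17, 36029977 to 36032701). It stood at 1626, 1965 and 1274 after anti-CD73 and at 1020, 625 and 941 in controls. Here too the groups did not overlap, and the log2 fold change was 0.92 (SE 0.23, limma adjusted p = 0.169). H2-M3 presents peptides that begin with N-formylmethionine, as those of bacteria and mitochondria do (ENSMUSG00000016206; chromosome 17, 37270234 to 37274485). It was at 399, 393 and 346 after anti-CD73 and at 344, 279 and 331 in controls. The gap between the groups was narrow, between 346 in anti-CD73 replicate 3 and 344 in control replicate 1, and the log2 fold change of 0.26 (SE 0.14, limma adjusted p = 0.434) did not pass and was 0.16 without control replicate 2. H2-M3 had the fewest reads of the members, from 220 to 442 per library.

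The light chain and the trimming enzyme were set apart by control replicate 1. B2m, the invariant beta-2 microglobulin that every class I heavy chain needs (ENSMUSG00000060802; chromosome 2, 122147687 to 122153082), stood at 36175, 35402 and 32628 normalized counts after anti-CD73 and at 60859, 30587 and 34670 in controls. Apart from control replicate 1, the libraries of both groups overlapped. The log2 fold change was -0.21 (SE 0.25, 95% interval -0.80 to 0.38, limma adjusted p = 0.731) with all 6 libraries and 0.09 (adjusted p = 0.52) without that control. Erap1 encodes the aminopeptidase of the endoplasmic reticulum that trims peptides to class I length (ENSMUSG00000021583; chromosome 13, 74639573 to 74693205). Its values were 1483, 1397 and 1418 after anti-CD73 and 2647, 1240 and 1279 in controls. The 3 anti-CD73 libraries lay above control replicates 2 and 3 and below control replicate 1, with a log2 fold change of -0.17 (SE 0.28, limma adjusted p = 0.806) and of 0.19 (adjusted p = 0.123) without control replicate 1. Across the 6 libraries B2m and Erap1 followed each other with Pearson r = 0.98, and H2-D1 ran against them at r = -0.91 and -0.96. These correlations are descriptions over 6 points that share depth and scaling, and control replicate 1 is the extreme point of all 3 genes.

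The transporter and tapasin did not separate the groups. Tap1 encodes a subunit of the peptide transporter (ENSMUSG00000037321; chromosome 17, 34187556 to 34197225). It stood at 5866, 6273 and 4952 normalized counts after anti-CD73 and at 4895, 4294 and 5611 in controls. Control replicate 3 lay above anti-CD73 replicate 3, so the groups overlapped, and the log2 fold change was 0.21 (SE 0.14, limma adjusted p = 0.527), with 0.11 without control replicate 2. Tap2, its partner subunit (ENSMUSG00000024339; chromosome 17, 34204479 to 34216321), stood at 3028, 3087 and 2581 after anti-CD73 and at 2079, 2364 and 3148 in controls. The highest library of all 6 was control replicate 3, and the log2 fold change was 0.21 (SE 0.17, limma adjusted p = 0.586), with 0.08 without control replicate 1 and 0.38 without control replicate 3. Tapbp encodes tapasin, the bridge between TAP and empty class I molecules (ENSMUSG00000024308; chromosome 17, 33919478 to 33929290). It stood at 6046, 6141 and 5424 after anti-CD73 and at 6479, 5087 and 6433 in controls. All anti-CD73 libraries lay inside the control range, with a log2 fold change of -0.02 (SE 0.13, 95% interval -0.34 to 0.29, limma adjusted p = 0.947). Coordinates of all members are those of the RefSeq gene table on GRCm38.p6, the assembly of mm10, where each is a protein-coding gene. Levels were not ranked between genes, as transcript lengths were not used.

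**Figure D2:**
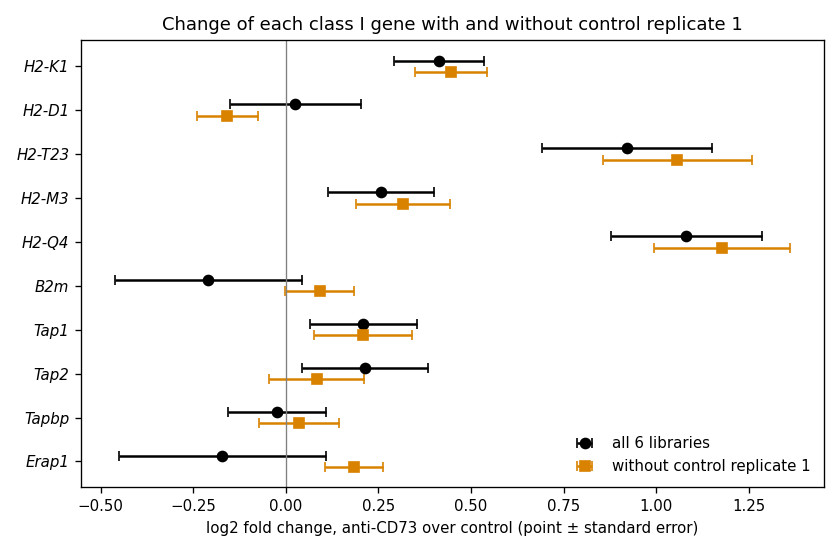
Log2 fold change of each class I gene, anti-CD73 over control (x axis; point ± standard error), with all 6 libraries (circles) and without control replicate 1 (squares). H2-K1, H2-T23, H2-M3 and H2-Q4 lay above 0 in both fits, while B2m (-0.21 and 0.09) and Erap1 (-0.17 and 0.19) changed sign.

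By limma with all 6 libraries, 0 of the 10 members passed at an adjusted p of 0.05, as did 0% of all genes tested, and edgeR also called 0. A limma fit with the description number as a replicate block called 3 members, all higher, and 1780 of the 12262 genes tested, in either direction. In that fit control replicate 1 and anti-CD73 replicate 2 have no partner, so its effect rests on the other libraries only. Before adjustment, 3 members had a p under 0.05 and lay higher (H2-K1, H2-T23 and H2-Q4) and 0 lay lower, against 8.69% of all genes higher and 6.82% lower. Of all genes with such a p, 56.0% lay higher, and 72.8% once erythroid genes were removed and the libraries rescaled. The groups did not overlap for 4 members, all higher, against 11.5% of all genes higher and 12.0% lower. DESeq2 on the recovered reads called 3 members higher and 0 lower, against 2.85% and 1.93% of the genes it tested. They were H2-K1 (adjusted p = 0.0346), H2-T23 (0.0127) and H2-Q4 (0.000328). Without control replicate 1, limma called the same 3 genes, H2-K1 (adjusted p = 0.0142), H2-T23 (0.00811) and H2-Q4 (0.00396), against 11.9% of all genes higher and 10.2% lower. In that contrast markers of other cell types differed too. Erythroid sums were 8412 to 30978 after anti-CD73, against 55529 and 58716 in control replicates 2 and 3, and all 5 erythroid genes were called lower. Epithelial sums were 2127 to 2703 after anti-CD73, against 3668 and 4660 in those controls. Krt8 alone made most of them, at 2000 to 2651 after anti-CD73 and 3591 and 4559 in those controls. It was called lower (limma adjusted p = 0.00509), whereas Krt18 (-0.16), Krt19 (0.84) and Cdh1 (1.39) were not called. The epithelial sum is thus close to a reading of 1 gene. The T cell, macrophage, leukocyte, dendritic cell and endothelial sums lay higher in every anti-CD73 library than in those controls. The part of these differences in the class I calls was not tested. The median log2 fold change of the members was 0.21, against 0.004 over all genes tested.

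As a whole, the share of the set in each library did not separate the groups. This share rests mostly on B2m and H2-D1, the members with the most normalized counts, so members with fewer counts hardly move it. The 10 genes held 0.877, 0.875 and 0.803% of the normalized counts of anti-CD73 replicates 1, 2 and 3, and 0.907, 0.735 and 0.827% of those of control replicates 1, 2 and 3. The means were 0.852 ± 0.042% and 0.823 ± 0.086% (SD, n = 3 each; two-sided exact permutation test, p = 0.7). With 3 libraries against 3, this test cannot go below 0.1. The balance of heavy to light chain, taken as the log2 ratio of H2-K1 plus H2-D1 to B2m, was 0.51, 0.54 and 0.60 after anti-CD73 and -0.64, 0.70 and 0.62 in controls. As transcript lengths were not used, only shifts of this ratio between libraries can be read, not its sign. Control replicate 1 lay far below every other library, and the means of 0.55 and 0.23 did not differ beyond their spread (two-sided exact permutation test, p = 1). The difference was 0.33 with all libraries and -0.11 without that control.

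**Figure D3:**
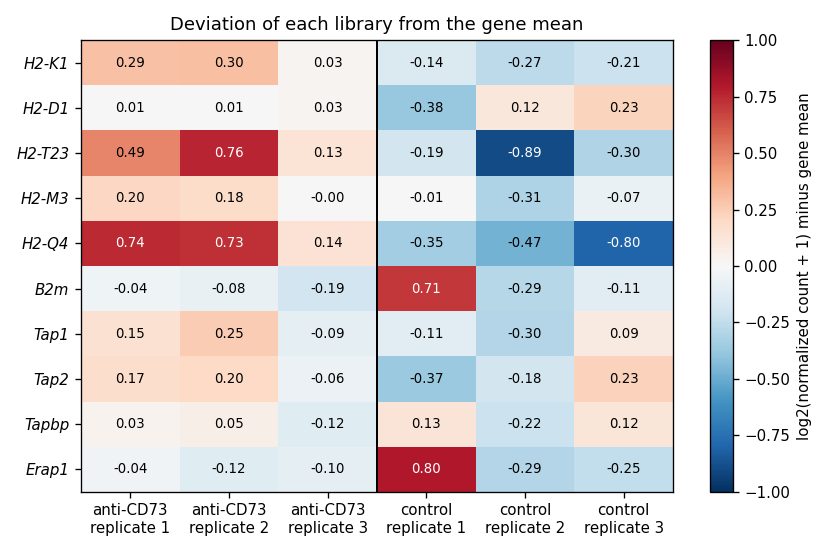
Log2(normalized count + 1) of each class I gene in each library, minus the mean of that gene over the 6 libraries, as colour and printed value, with the anti-CD73 libraries left of the controls. Anti-CD73 replicates 1 and 2 were the highest for H2-K1, H2-T23, H2-M3 and H2-Q4, and control replicate 1 reached 0.71 for B2m and 0.80 for Erap1.

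Correlations among the 4 heavy chains whose groups did not overlap are largely fixed by that choice, since each has all anti-CD73 libraries above all controls. H2-K1 had r = 0.95 with H2-T23, 0.90 with H2-M3 and 0.97 with H2-Q4, and -0.07 with H2-D1. Tap1 had r = 0.87 with H2-M3, 0.86 with H2-T23, 0.80 with Tap2 and 0.77 with H2-K1. Among 9349 other genes with a mean of at least 100, those most like H2-K1 by Pearson r over the 6 libraries were Oas1g, Irf8, Hmox2, Rasgrp4 and Stk40 (r from 0.994 to 0.996). For B2m they included Prdx3, Ska2, Slc35b1 and Polr3k (0.994 to 0.997), and for Tap1 they were Usp43, Depdc5, Psmb9, Adgrg1 and Eng (0.956 to 0.981). With 6 points that share library and depth, such values are descriptions and carry no p.

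Other heavy-chain genes were also measured. Of the 18 listed class I and class I-like genes, 15 were in the table and 9 passed the filter, of which 8 lay higher after anti-CD73 (median log2 fold change 0.26) and 0 passed by limma over all genes. Before adjustment, 3 of the 9 had a p under 0.05, all with higher values, against 8.69% of all genes. H2-Q7, a Qa-2 heavy chain, stood at 629, 605 and 425 normalized counts after anti-CD73 and at 290, 255 and 193 in controls, without overlap (log2 fold change 1.16, SE 0.22, limma adjusted p = 0.14). H2-T24 (1.13, SE 0.27) and H2-Q10 (1.19, SE 0.32) had the next smallest p, and H2-T10 had 0.26 (SE 0.18). DESeq2 called H2-Q7, H2-T24 and H2-Q10 higher, against 2.85% of the genes it tested. Without control replicate 1, limma called the same 3 higher, against 11.9% of all genes. H2-Q5 (1.23, SE 0.28) and H2-Q8 (0.84, SE 0.25), named after their values were seen, also lay higher. By contrast, H2-T22, a ligand of gamma delta T cells, stood at 1996, 2217 and 1780 after anti-CD73 and at 1990, 1577 and 2118 in controls (0.08, SE 0.15, limma adjusted p = 0.83), with overlapping groups. The Q genes resemble each other closely, so reads may have been divided among them or lost.

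For peptide supply, all 5 genes of the immunoproteasome and its activator lay higher after anti-CD73, with a median log2 fold change of 0.28, and 0 passed by limma over all genes or at an unadjusted p under 0.05. Psmb9, the interferon-induced catalytic subunit whose gene adjoins Tap1, had 1606, 1722 and 1177 normalized counts after anti-CD73 and 1181, 900 and 1276 in controls (0.42, SE 0.19, limma adjusted p = 0.347). Psmb8 had 0.28 (SE 0.16), Psmb10 0.39 (SE 0.24) and the activator gene Psme1 0.12 (SE 0.13), and the groups of all 5 genes overlapped. For Psmb7, a subunit they replace, the anti-CD73 libraries had 1872, 1656 and 1761 normalized counts and the controls 2278, 1909 and 2082, every anti-CD73 library below every control. That held for 1 of the 3 replaced subunits, against 12.0% of all genes. The replaced subunits had log2 fold changes of -0.24 for Psmb7, 0.06 for Psmb5 and 0.01 for Psmb6, the last 2 turning negative without control replicate 1 and without anti-CD73 replicate 1. Of the 9 trimming and loading partners, 5 lay higher and 4 lower (median 0.03), with 0 past the test. Tapbpl, the tapasin-related peptide editor TAPBPR, stood at 309, 327 and 213 after anti-CD73 and at 306, 133 and 169 in controls (0.55, SE 0.32, limma adjusted p = 0.459). Tpp2 (-0.31, SE 0.20), Calr (0.15, SE 0.12) and Thop1 (0.25, SE 0.21) followed it in p. Tpp2 was the 1 of the 9 partners with every anti-CD73 library below every control, against 12.0% of all genes. Its gap was narrow, between 2623 in anti-CD73 replicate 3 and 2644 in control replicate 3. Without control replicate 1, limma called 3 of these 9 partners higher, against 11.9% of all genes in that fit, among them Tapbpl (0.89, adjusted p = 0.017) and Calr (0.24, adjusted p = 0.0454), and DESeq2 with all libraries called 0. Without control replicate 2, Tapbpl had 0.29.

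**Figure D4:**
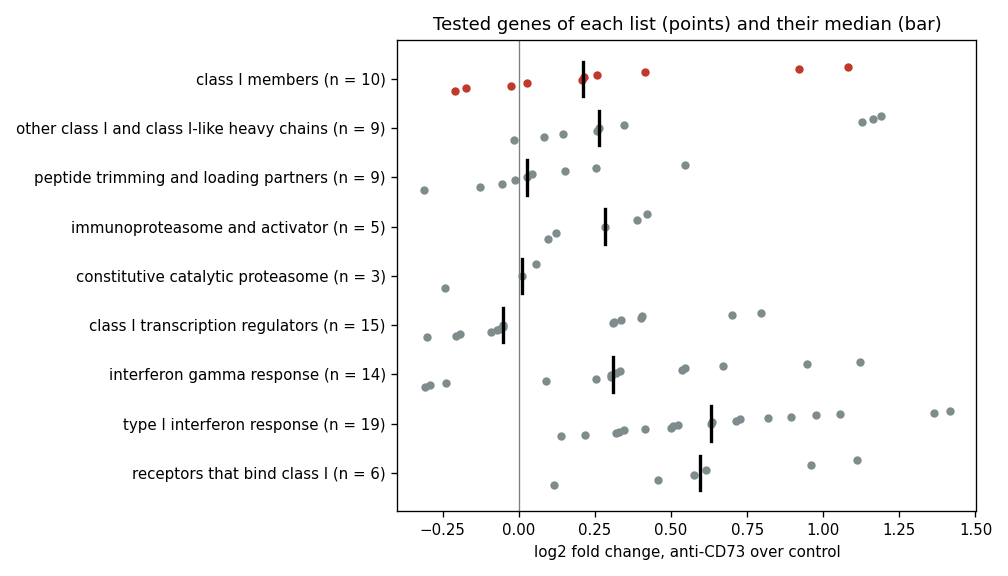
Log2 fold change, anti-CD73 over control (x axis), of each tested gene (points) in the class I set (red) and in 8 related lists (grey), with the median of each list as a bar and the number of tested genes in brackets. The class I set spread from -0.21 for B2m to 1.08 for H2-Q4, and all 19 type I interferon genes lay above 0.

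Among regulators of class I transcription, 7 of 15 lay higher and 8 lower (median -0.05), and 0 passed by limma over all genes. Irf8, a myeloid interferon regulatory factor, had the smallest p, at 1661, 1593 and 1062 normalized counts after anti-CD73 and 893, 736 and 819 in controls, without overlap (log2 fold change 0.79, SE 0.19, limma adjusted p = 0.166; DESeq2 adjusted p = 0.00772). Rfx5 of the X-box complex had 0.31 (SE 0.14), Irf2 0.40 (SE 0.19) and the Y-box factor gene Nfya -0.30 (SE 0.15). Nlrc5, the class I activator, stood at 2113, 2528 and 1978 after anti-CD73 and at 2296, 1152 and 1717 in controls (0.41, SE 0.24, limma adjusted p = 0.464). Control replicate 1 lay inside the anti-CD73 range, and without it Nlrc5 had 0.64 (limma adjusted p = 0.0247). Without control replicate 2 it had 0.14. In the fit without control replicate 1, 4 of the 15 regulators passed with higher and 1 with lower values, against 11.9% and 10.2% of all genes. The median of the list turned positive when any control was left out, at 0.18, 0.14 and 0.16 without control replicates 1, 2 and 3.

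Type I interferon response genes had log2 fold changes above 0, and their part in the class I values was not tested. All 19 lay higher (median log2 fold change 0.63), and 0 passed by limma over all genes. At an unadjusted p under 0.05 there were 10 of them, against 8.69% of all genes with higher values. Those of smallest p were Irf7 (0.89, SE 0.19), Ifit3 (1.05, SE 0.31), Oas3 (0.63, SE 0.19) and Isg15 (0.71, SE 0.22). DESeq2 called 4 of the 19 higher, against 2.85% of all genes, and limma without control replicate 1 called 15, against 11.9% of all genes. The groups did not overlap for 5 of the 19, all higher, against 11.5% of all genes. Of 14 tested interferon gamma response genes, 11 lay higher (median 0.31) and 0 reached an unadjusted p under 0.05. They were led in p by Ifngr2 (0.30, SE 0.15), Gbp5 (0.67, SE 0.34), Socs1 (-0.29, SE 0.15) and Ifngr1 (0.25, SE 0.14). DESeq2 called 0 of them, and limma without control replicate 1 called 5 of the 14 higher, against 11.9% of all genes, with a median of 0.77. Socs1 was the 1 of the 14 with every anti-CD73 library below every control, against 12.0% of all genes, and 0 had every one above, against 11.5%. Control replicate 1 lay above control replicates 2 and 3 by 1.56 in the median of this list, on the log2 scale, and by 0.18 in that of the class I set. The macrophage and leukocyte sums given above also lay higher in every anti-CD73 library than in control replicates 2 and 3, and the neutrophil and fibroblast sums higher than in every control. Their part in the class I values was not tested either.

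Apart from Pirb, receptors that read class I molecules were few in reads. Of 11 listed, 10 were in the table and 6 passed the filter, all with a log2 fold change above 0 (median 0.60) and 0 past the test. Pirb, an inhibitory class I receptor of myeloid and B cells, stood at 764, 1066 and 519 normalized counts after anti-CD73 and at 516, 397 and 279 in controls (0.96, SE 0.31, limma adjusted p = 0.217), with a gap between 519 in anti-CD73 replicate 3 and 516 in control replicate 1. Klrd1, which encodes CD94 of the Qa-1 receptor, stood at 38.1, 25.4 and 22.6 after anti-CD73 and at 92.4, 6.34 and 9.73 in controls, so 1 control exceeded every anti-CD73 library (0.58, SE 0.89, limma adjusted p = 0.794). Cd8a had 1.11 (SE 0.90) and Cd8b1 0.62 (SE 0.69), again with control replicate 1 the highest library. Without it limma called 3 of the 6 receptors higher, against 11.9% of all genes: Pirb (1.17, adjusted p = 0.016), Klrd1 (1.71, adjusted p = 0.016) and Cd8a (2.13, adjusted p = 0.0224). Without control replicate 2, Cd8a had 0.21, Klrd1 -0.13 and Cd8b1 -0.05.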

How the data were processed

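Bulk RNA-seq values of 6 mouse libraries, 3 anti-CD73 and 3 control, were used. Titles gave the groups and replicate numbers, and descriptions, numbered differently, tied each sample to its table column. A further 19 samples are not analysed here. The deposited signal values are DESeq-normalized gene counts, per the labels. The submitters' processing notes list Bowtie 0.12.7 and mm10, with no role stated. Not given in the sources used here are the counter, its annotation and any use of strand. Every value was a whole multiple of 1 read within 0.01 of an integer (100% of values), so reads were recovered by division.

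Of 25006 rows, 24082 carry a symbol. limma-trend (limma 3.58.1, R 4.3.3) was fitted to log2(normalized count + 1) for the 12262 genes with a mean of at least 10, with no block, two-sided, and p-values were adjusted over all of them by Benjamini and Hochberg at 0.05. The scale understates changes of genes with few reads. As alternatives, edgeR 4.0.16 (quasi-likelihood, TMM) and DESeq2 1.42.0 were run on recovered reads, beside other pseudocounts, filters, scalings, replicate blocks and each library left out. No list test was run. Members and lists were chosen with earlier results of these data known. All members were named, and of each related list the 4 genes of smallest p, Psmb8, Psmb9, Psmb10 and Nlrc5. H2-T22 was added after its values were seen. Of the genes most like B2m across libraries, 1 is not reported here. The fit was tested on simulated data: in 5 draws with 200 of about 12160 to 12180 tested genes changed, 47.2% of the 2-fold and 93.1% of the 4-fold changes were found by limma, with 5.55% of calls false. In the draws each gene varied independently and no library was set apart, as control replicate 1 is in the real data. These rates therefore cannot be carried over to the real fit. Promoters were compared with Biopython 1.88 by global alignment with free end gaps, and figures were drawn with matplotlib 3.10.9.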

Additional observations from a re-analysis of the deposited data

How the results depend on the processing

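Direction held for H2-K1, H2-T23, H2-Q4, H2-M3, Tap1 and Tap2 under all 18 alternatives. The log2 fold change ranged from 0.37 to 0.59 for H2-K1, from 0.70 to 1.08 for H2-T23 and from 0.95 to 1.28 for H2-Q4, and each passed under 3 alternatives. These were DESeq2 (3 members and 586 genes called in all), the replicate block by description number (3 and 1780) and the fit without control replicate 1. Over the alternatives, the highest limma adjusted p was 0.71 for H2-K1, 0.67 for H2-T23 and 0.67 for H2-Q4. With each library left out in turn, 0 to 3 members and 0 to 2717 genes were called, all calls coming without control replicate 1. In the block by description number, control replicate 1 and anti-CD73 replicate 2 have no partner and add nothing. Its calls and those of the fit without control replicate 1 are therefore not separate, as both leave out that control. That block gave -0.16 for H2-D1, 0.077 for B2m, 0.20 for Erap1, 0.0015 for Tapbp and -0.078 for Psmb6, all with the sign turned. Its 2 pairs correlated at -0.16 and 0.26 in their deviations. Samples of the same title number correlated at 0.19, -0.096 and 0.26 in their deviations, so the numbers were not taken as pairs, and the replicate block by title number called 0 members and 0 genes. Tapbp also turned with quantile normalization (0.065) and with erythroid genes removed and libraries rescaled (0.044), where the median of all genes was -0.029 and 0.073 and the share of higher genes among those with p under 0.05 before adjustment was 48.6% and 72.8%, compared with 56.0% for the values as deposited. Klrd1 turned with edgeR (-0.30) and DESeq2 (-0.33). With libraries left out in turn, ranges that crossed 0 were H2-D1 -0.16 to 0.15, B2m -0.40 to 0.092, Erap1 -0.36 to 0.19, Tapbp -0.14 to 0.035, Psmb5 -0.023 to 0.11, Psmb6 -0.078 to 0.092, Klrd1 -0.13 to 1.71, Cd8b1 -0.050 to 1.35, the median of the transcription regulators -0.042 to 0.18, the share of the members -0.015 to 0.071 percentage points (negative without control replicate 2) and the heavy to light chain ratio -0.11 to 0.56. The cause was not tested. The members' median ranged from 0.14 to 0.30 over the 18 alternatives. The lowest read count of a member in a library was 220.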
